A study of Drosophila melanogaster with 12 samples.

Results

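Rtnl1 encodes a reticulon of Drosophila melanogaster and was followed as 1 gene among the 131 that could be named on this array. Its probe set, 142893_at, was the only 1 of 13966 gene probe sets whose identifier is a synonym of Rtnl1 in the RefSeq gene table, matched without regard to case. The gene was chosen by its measured values: earlier results of these data had shown a high value after X-rays and a low value in untreated embryos of the later window. The X-ray differences and the stage differences below are therefore descriptions of the values that chose it, and no test of Rtnl1 is drawn from them. RefSeq lists 11 transcripts for the gene, and 1 probe set cannot tell them apart.

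Reticulons are membrane proteins of the endoplasmic reticulum. Their hydrophobic hairpins, held in the conserved reticulon domain at the carboxyl end, sit in the outer leaflet of the membrane and help to curve it, which keeps tubules and sheet edges in shape. In flies Rtnl1 is widely used as a marker of smooth and tubular endoplasmic reticulum, and its loss disturbs the endoplasmic reticulum of long motor axons.

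RNA of C-S embryos was hybridised to 12 single-colour arrays, and 4 groups had 3 arrays apiece. These groups were X-ray treated embryos at stages 13 to 15, untreated control embryos at stages 13 to 15, X-ray treated embryos at stages 9 to 11 and untreated control embryos at stages 9 to 11. The sample titles call the later window resistant and the earlier window sensitive, and treated embryos were taken 15 to 20 minutes after treatment. All embryos were of the same strain, and no dose of X-rays is stated in the labels. Each title carries a number from 1 to 3, and every number holds 1 array of each group. No label says that arrays of a group came from separate collections, so the spread between them may be partly technical. In RNA pooled over an embryo's tissues, fewer cells of a type and less RNA per cell cannot be told apart.

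The deposited arrays shared 1 overall level, with trimmed means equal to within 0.0023%. Spearman correlations across probe sets were 0.816 to 0.945 between arrays of a window and 0.617 to 0.752 between windows. No pair of arrays shared more than 0.523% of its values, so all 12 were counted as separate samples. The labelled stages were checked with the 3 marker genes, of 41 listed, that had names on the array. The muscle and mesoderm tubulin gene betaTub60D averaged 633 ± 130 in controls of the later window, against 91.0 ± 6.01 in controls of the earlier one (SD, n = 3 each), and rose by 2.61 ± 0.17 on the log2 scale (SE, limma adjusted p = 9.94e-08). The segment polarity gene engrailed (en) averaged 69.0 ± 13.3 in the later controls and 310 ± 43.3 in the earlier ones (SD, n = 3 each), and fell by 1.98 ± 0.25 (SE, limma adjusted p = 3.26e-05). Strn-Mlck, which encodes a kinase of muscle myosin, averaged 52.6 ± 27.7 in the later controls and 5.17 ± 1.46 in the earlier ones (SD, n = 3 each), and rose by 1.73 ± 0.45 (SE, limma adjusted p = 0.00899). The neuronal, glial, fat body, tracheal, gut, germ cell and haemocyte markers were not analysed by name here.

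Rtnl1 was a transcript of middling signal. In irradiated embryos at stages 13 to 15 it read 91.6, 107.2 and 124.8 on the arrays numbered 1, 2 and 3. In control embryos of the same stages it read 9.7, 17.4 and 73.0. All 3 irradiated arrays of this window stood above all 3 controls, and the controls themselves were split, with 2 arrays under the value of 29.9 that was used to filter weak probe sets and 1 well over it.

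At stages 9 to 11 Rtnl1 read 56.9, 33.5 and 132.2 in irradiated embryos. The controls of these stages read 75.7, 98.9 and 112.5. Here the groups overlapped, since the irradiated arrays held both the lowest and the highest value of the window. Over the series Rtnl1 was above the filter value on 10 arrays of 12, and both exceptions were later controls.

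The group means were 108 ± 16.6 in irradiated and 33.4 ± 34.5 in control embryos at stages 13 to 15. They were 74.2 ± 51.6 in irradiated and 95.7 ± 18.6 in control embryos at stages 9 to 11 (SD, n = 3 in each group). Ordered by mean, the irradiated later embryos came highest, then the earlier controls, then the irradiated earlier embryos, and the later controls lowest. The values of each group overlapped those of the next in that order, so no neighbours in it differed beyond their spread. The relative spread was uneven, with a coefficient of variation of 15.4% in irradiated and 104% in control embryos of the later window, and of 69.5% in irradiated and 19.4% in control embryos of the earlier one.

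**Figure D1:**
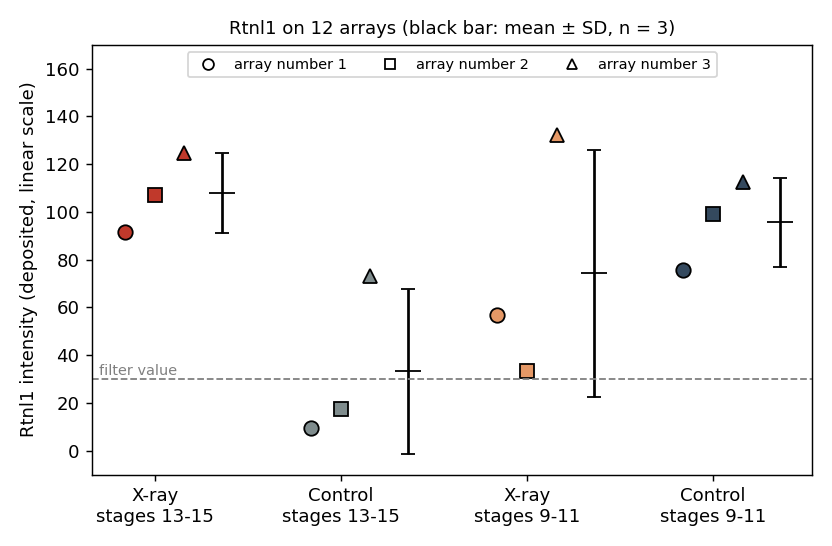
Intensity of Rtnl1 (deposited values, linear axis) on each of the 12 arrays, by group, with the marker shape giving the array number and black bars the mean ± SD of 3 arrays. The irradiated later embryos lie between 91.6 and 124.8, 2 of the later controls lie under the filter value of 29.9, and the array numbered 3 is the highest of every group.

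Ranks within each array, which do not depend on the scaling between arrays, gave the same picture. Among all gene probe sets of its array, Rtnl1 stood at percentiles 68.4, 71.9 and 75.5 in irradiated embryos at stages 13 to 15, against 15.5, 27.2 and 62.5 in their controls. At stages 9 to 11 it stood at 55.7, 40.9 and 76.1 in irradiated embryos, against 63.4, 71.0 and 72.4 in controls. On both weak arrays it lay below the filter value, and how far such readings stood above background is not known.

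The first question was how Rtnl1 differed shortly after X-rays in the later, resistant window. On the scale of log2(value + 13.3), used for all log2 differences here, Rtnl1 was 1.61 ± 0.46 higher in irradiated than in control embryos (SE, 95% confidence interval 0.63 to 2.59). The SEs and intervals of the log2 differences pool the spread of all 4 groups, which was uneven. The log2 SD was 0.20 in irradiated and 1.00 in control embryos of the later window. In the earlier window it was 0.83 in irradiated and 0.25 in control embryos. The size depends on the pseudocount of 13.3, since 2 of the controls read 9.7 and 17.4, values of about its size. The difference was 2.01 with 0.25 times and 0.96 with 4 times the pseudocount, so no single fold is given. Of 10139 tested probe sets, 2, Rtnl1 included, differed upward by at least 1.61, while the median size of difference in either direction was 0.22. The gene was chosen by this high value, so its place there is no test of it. Its residual SD was 0.67, against a median of 0.409 over the tested probe sets.

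The X-ray difference of the later window was not evenly shared among the array numbers. Within numbers 1, 2 and 3 it was 2.19, 1.97 and 0.68. The sign was the same in all 3, and the smallest value came from the pair numbered 3, whose control read 73.0. No probe set passed in this comparison: 0 of 10139 (0%), Rtnl1 included, had a limma adjusted p under 0.05, while 503 had an unadjusted p under 0.05. Complete separation of the groups with irradiated embryos on top, as Rtnl1 showed, was seen for 511 probe sets (5.04%).

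In the earlier, sensitive window the difference ran the other way and was smaller. Rtnl1 was 0.46 ± 0.46 lower in irradiated than in control embryos, a log2 difference of -0.46 with a 95% confidence interval of -1.44 to 0.51. Within numbers 1, 2 and 3 the difference was -0.34, -1.26 and 0.21, so the pairs did not share a sign. In this comparison 2 probe sets (0.0197%) had a limma adjusted p under 0.05, and Rtnl1 was not among them.

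Set against each other, the X-ray difference of the later window exceeded that of the earlier window by 2.08 ± 0.65 on the log2 scale (SE, 95% confidence interval 0.69 to 3.46). It did so by 2.53, 3.23 and 0.47 within numbers 1, 2 and 3. In this comparison 2 probe sets (0.0197%) passed in limma, again without Rtnl1.

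**Figure D2:**
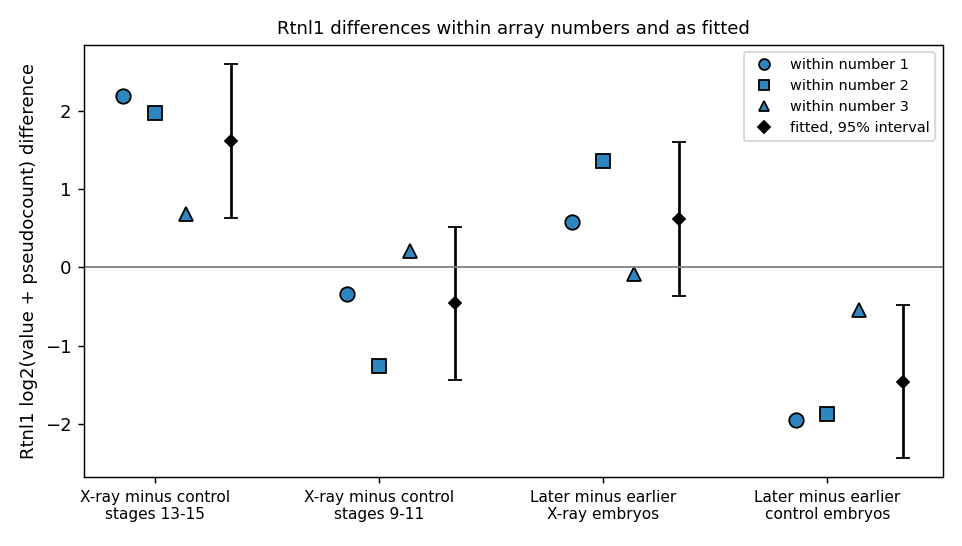
Log2 differences of Rtnl1 within each array number (blue) and from the fit over all arrays with its 95% confidence interval (black), for X-ray minus control in each window and for the later minus the earlier window in irradiated and in control embryos. The later X-ray difference is positive within every number (2.19, 1.97 and 0.68), and the stage difference of the controls is negative within every number (-1.95, -1.87 and -0.54).

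The stage difference was read first in untreated embryos. Rtnl1 was lower in controls of the later window than in controls of the earlier one, with a log2 difference of -1.46 ± 0.46 (SE, 95% confidence interval -2.43 to -0.48). It was -1.84 with 0.25 times and -0.85 with 4 times the pseudocount. Within numbers 1, 2 and 3 it was -1.95, -1.87 and -0.54. Every later control read below every earlier control, the closest values being 73.0 and 75.7.

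In the fit over the whole table, 1467 of 10139 probe sets (14.5%) were lower in the later controls at a limma adjusted p under 0.05. Rtnl1 was counted among them, which describes the values it was chosen by and is no test of it. Groups with no overlap and the later controls below were seen for 2114 probe sets (20.9%). Rtnl1 no longer had a limma adjusted p under 0.05 when any 1 of 4 control arrays was left out. The log2 difference was then -1.07 without later control 1, -1.28 without later control 2, -1.43 without earlier control 2 and -1.34 without earlier control 3.

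In irradiated embryos the stage difference had the other sign. Rtnl1 was 0.62 ± 0.46 higher in irradiated embryos of the later window than in those of the earlier one on the log2 scale (SE, 95% confidence interval -0.36 to 1.60). Within numbers 1, 2 and 3 the difference was 0.58, 1.36 and -0.08, and the groups overlapped. In this comparison 2390 probe sets (23.6%) passed in limma, and Rtnl1 was not among them. The interval includes both no difference and a difference of over 2-fold, so it does not show that the irradiated groups were alike.

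The higher reading after X-rays in the later window and the lower reading in later controls share the same 3 control arrays, and are not separate observations. With later controls 1 and 2 both left out, a setting chosen after seeing the data, 1 later control remained and was assumed to vary like the other groups. The X-ray difference of the later window was then 0.48, and the stage difference of the controls was -0.32 and no longer called. Leaving out single arrays kept the sign of both differences. The X-ray difference of the later window ran from 1.23, without later control 1, to 2.18, without later control 3, and was not called in any of the 12 fits.

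**Figure D3:**
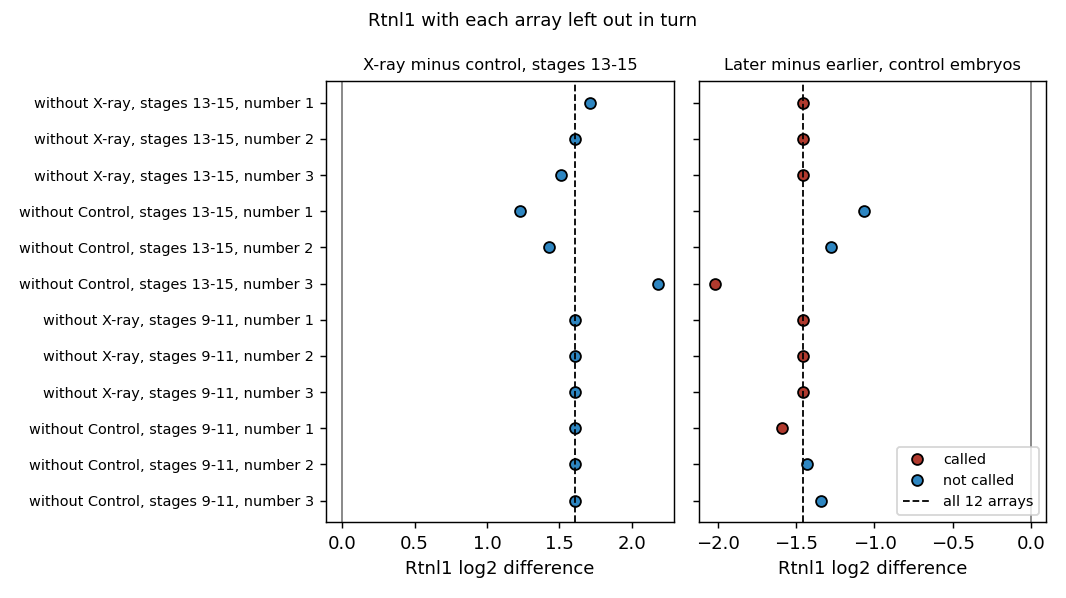
Log2 difference of Rtnl1 when each of the 12 arrays in turn was left out of the fit, for X-ray minus control at stages 13 to 15 (left) and for the later minus the earlier window in controls (right), with the dashed line at the value from all arrays. Red points passed an adjusted p under 0.05 in limma and blue points did not, and removing a later control moves both values most.

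Rtnl1 also differed by array number. The array numbered 3 gave the highest reading in all 4 groups: 124.8 in irradiated and 73.0 in control embryos of the later window, and 132.2 in irradiated and 112.5 in control embryos of the earlier one. Of the 10139 tested probe sets, 688 (6.79%) were highest on number 3 in every group, against 210 (2.07%) on number 1 and 233 (2.30%) on number 2. Of the 107 tested genes with names, 8 were highest on number 3 in every group, Rtnl1 among them.

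Most of the array controls examined differed by number as well. The 5′ over 3′ ratio of eIF-4a, a translation factor whose transcript is probed at both ends to show how complete the labelled RNA was, stood at 0.0378 to 0.0550 on arrays numbered 1 and 0.0524 to 0.0798 on those numbered 2. On those numbered 3 it was 0.140 to 0.200. The BioB spike-in (middle probe set) read 1376 to 1533, 425 to 738 and 226 to 299 on the arrays numbered 1, 2 and 3. Both weak Rtnl1 readings came from arrays with low ratios, 0.0390 on later control 1 and 0.0524 on later control 2. The lowest ratio of the 12, 0.0378, belonged to an earlier control, on which Rtnl1 read 75.7. The 5′ over 3′ ratio of actin was also higher on the arrays numbered 3, at 0.325 to 0.458, while number 1 had 0.159 to 0.267 and number 2 had 0.138 to 0.211. Its lowest values were 0.138 on later control 2, 0.159 on later control 1 and 0.160 on irradiated earlier array 2. Rtnl1 read 17.4, 9.7 and 33.5 on these arrays, its lowest readings of the series. That of GAPDH overlapped: it was 0.207 to 0.340 for number 1, 0.175 to 0.301 for number 2 and 0.179 to 1.07 for number 3. The lowest GAPDH ratios were 0.175 on irradiated earlier array 2 and 0.179 on irradiated later array 3, where Rtnl1 read 33.5 and 124.8. The top of the scale also differed: the brightest probe set of an array read 20207 to 24796 on number 1 and 22375 to 24755 on number 2. On number 3 it read 11073 to 12532, although trimmed means were equal. The part of these technical values in the Rtnl1 differences was not tested.

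**Figure D4:**
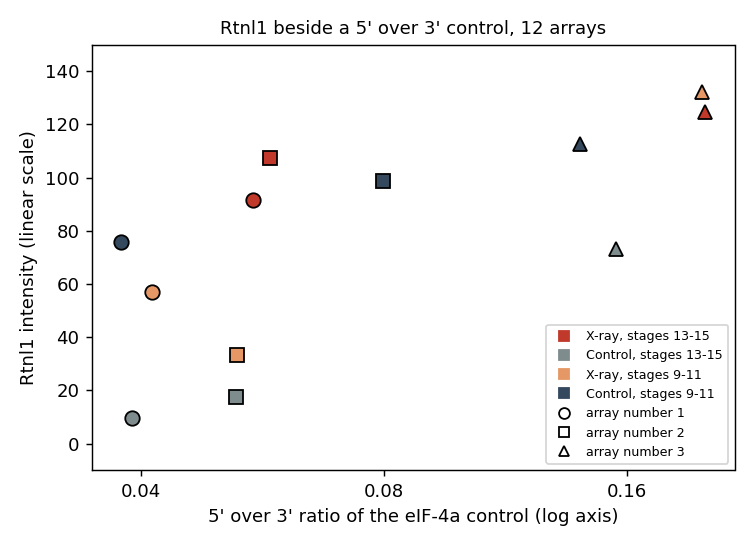
Rtnl1 intensity (linear axis) against the 5′ over 3′ ratio of the eIF-4a array control (log axis) for the 12 arrays, coloured by group, with the marker shape giving the array number. The arrays numbered 3 lie apart at ratios of 0.140 to 0.200, and at ratios of 0.0378 to 0.0798 Rtnl1 spans 9.7 to 107.2.

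With the arrays numbered 3 left out, the X-ray difference of Rtnl1 was 2.08 in the later window and -0.80 in the earlier one, and neither was called. The stage difference of the controls was -1.91 and was called, which again is no test of a gene chosen by its values. The values from numbers 1 and 2 were thus larger in size than those from all arrays, and the single arrays numbered 3 gave 0.68 for X-rays and -0.54 for the control stages.

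Few other genes of the endoplasmic reticulum could be named. Rtnl1 was the only 1 of 14 listed membrane-shaping genes with a name on the array, and none of 31 listed folding, stress and transport genes had one. Of 7 listed enzymes of the endoplasmic reticulum, only Jheh1, a juvenile hormone epoxide hydrolase, was measured by name. Jheh1 read 264.7, 198.9 and 182.6 in later controls, against 42.4, 66.4 and 41.9 in earlier controls. It rose by 1.85 ± 0.34 on the log2 scale (SE, limma adjusted p = 0.000793), while Rtnl1 was lower in the same comparison. In irradiated embryos Jheh1 read 156.5, 152.3 and 148.6 in the later window, against 11.7, 9.1 and 48.4 in the earlier one, a rise of 2.35 ± 0.34 (SE, limma adjusted p = 0.000136).

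Another pair of genes with a role in these membranes was taken from the named genes after the lists had been fixed. The gene bai encodes a cargo receptor of the p24 family, which cycles between endoplasmic reticulum and Golgi. It read 664.2 to 932.4 in irradiated and 790.0 to 1045.2 in control embryos of the later window, and 596.7 to 638.9 in irradiated and 509.7 to 670.5 in control embryos of the earlier one. The gene mino encodes a glycerol-3-phosphate acyltransferase of lipid synthesis and stayed between 85.7 and 164.4 on all 12 arrays. Neither had a low reading confined to later controls 1 and 2, and bai was at its highest on these arrays.

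The pattern of Rtnl1 over the 12 arrays was compared with that of 106 other named genes by Pearson's r of log2 values, as a description. Arrays share their number and window, so these values reflect array differences as well as groups. The median r was -0.04 and the range -0.73 to 0.70. The most alike were foraging (for), a cGMP-dependent protein kinase gene, at r = 0.70, Gprk2, a G protein-coupled receptor kinase gene, at 0.67, and Skp2, an F-box gene of a ubiquitin ligase, at 0.65. The least alike were mRpS16, a mitochondrial ribosomal protein gene, and Dro, which encodes the antimicrobial peptide drosocin, at -0.73 each.

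Gprk2 shared the lowest array with Rtnl1. It read 57.8, 96.2 and 108.8 in irradiated and 12.6, 66.5 and 71.9 in control embryos of the later window. In the earlier window it read 106.7, 135.6 and 132.0 in irradiated and 82.7, 111.9 and 129.3 in control embryos. Its groups overlapped in the later window, unlike those of Rtnl1. The genes for and Skp2 were highest on number 3 in every group, as Rtnl1 was. With group means removed, r with Rtnl1 was 0.76 for the gene for, 0.57 for Gprk2 and 0.82 for Skp2, so the likeness included differences between arrays of the same group. Without the arrays numbered 1, or without those numbered 3, none of these 3 genes was among the 3 most alike.

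Closer matches were found among probe sets without a name here. Over all 10138 other probe sets the median r was -0.04, and 5 had an r of at least 0.9. The highest was 146589_AT, at r = 0.95, a bright probe set. It read 1715.8, 1582.7 and 1665.3 in irradiated and 821.6, 797.8 and 1459.5 in control embryos of the later window. It was picked for its likeness to Rtnl1 over these arrays, so its low readings on the same 2 later controls are no separate observation. Its signal there was far above the filter value. In the earlier window it read 1237.0, 1240.7 and 1908.0 in irradiated and 1312.2, 1613.2 and 1493.1 in control embryos. The next, 149060_AT at r = 0.92, read 36.7 to 49.0 in irradiated later embryos, against 10.6, 12.8 and 35.8 in their controls. The most opposed were 144422_AT and 151343_R_AT, at -0.92 each. For 144422_AT the later controls read 180.9, 108.7 and 38.7, against 58.8, 56.3 and 44.1 in earlier controls.

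**Figure D5:**
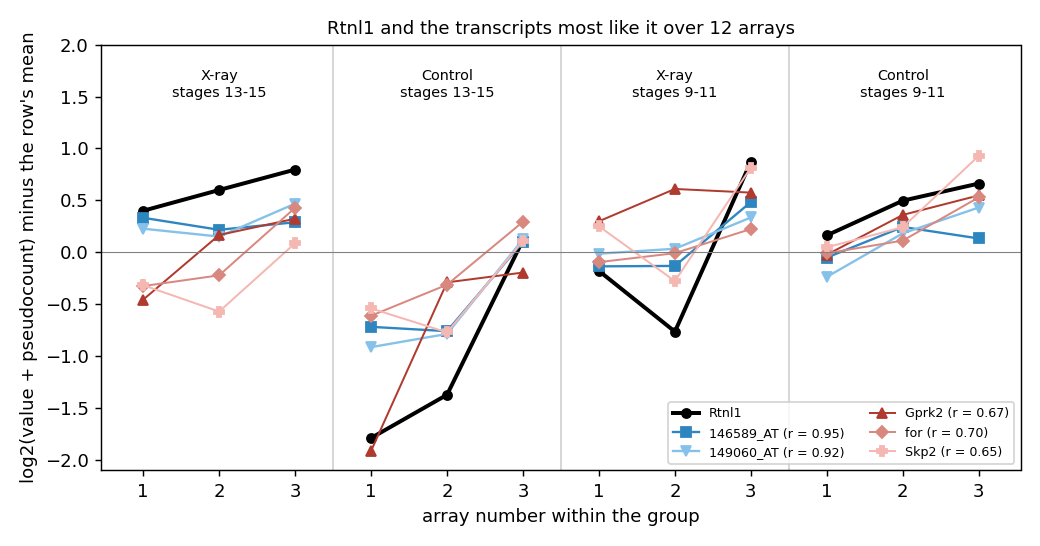
Log2(value + pseudocount) of Rtnl1 and of the 3 named genes and 2 unnamed probe sets most like it, each minus its own mean over the 12 arrays, with arrays by group along the axis and lines that only join points of a group. Rtnl1 (black) and 146589_AT (r = 0.95) are lowest on later controls 1 and 2, and Gprk2 (r = 0.67) is lowest on later control 1.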

How the data were processed

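The authors' deposited table holds intensities on a linear scale for 14010 probe sets (44 array controls) on 12 arrays. Scanner software, background correction and normalization: not given in the sources used here. Fold changes of weak probe sets are therefore uncertain in both directions. No further normalization was applied. Names came from RefSeq synonyms (assembly Release 6 plus ISO1 MT), which named 133 of 13966 gene probe sets.

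A pseudocount of 13.3, the 25th percentile over all table entries, was added before taking log2, so log2 differences understate the change of weak probe sets. Probe sets above 29.9 (the 40th percentile) on at least 3 arrays were kept (10139, with 107 named genes). All were fitted together with limma 3.58.1 in R 4.3.3 (lmFit, eBayes with a trend, 4 group means, 8 residual degrees of freedom), 2-sided, with Benjamini-Hochberg adjustment over all kept probe sets. "Called" means an adjusted p under 0.05. The code was tested on simulated data. The number of arrays limits precision: the median half-width of a 95% confidence interval was 0.725 on the log2 scale.

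The member gene, the lists and the tests were chosen with earlier results of these data known. Genes named in the text were Rtnl1, the 3 named genes most and 2 least alike by r, at most 2 unnamed probe sets each way, and the kept members of the lists. The genes bai and mino were added later. In the earlier window the deviations of same-numbered arrays correlated at over 0.1 for all 3 numbers, so the numbers were taken to pair irradiated and control arrays there. A fit with the number as a block over all 4 groups was run beside the main one. The SEs and intervals given for Rtnl1 are those of the main fit, which ignores the numbers.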

Additional observations from a re-analysis of the deposited data

How the results depend on the processing

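In 14 other settings (13 for the difference between the windows) and in 12 fits without 1 array each, every Rtnl1 difference kept its sign, and the X-ray differences, their difference and the irradiated stage difference were never called in limma. The fits without 1 array gave 1.23 to 2.18 for X-rays in the later window, -0.91 to -0.09 in the earlier one, 1.69 to 2.64 for the difference between them, -2.02 to -1.07 for the stage difference of controls and 0.25 to 1.07 for that of irradiated embryos. The stage difference of controls was called in 8 of these 12 fits, which describes the values that chose the gene and is no test of it. It was -1.21 without the arrays numbered 1, -1.25 without those numbered 2 and -0.32 without later controls 1 and 2 together, and was not called in these 3 settings. Those fits have fewer arrays. With median scaling the median difference of all probe sets was -0.12 for the control stages, against 0.05 without it, and Rtnl1 then stood at -1.60. No label says what the numbers in the titles stand for. Same-numbered deviations from the group means correlated at 0.0139 to 0.435, with 10 of 18 over 0.1, and 11 of 12 arrays correlated best with their own number, a hint from the data that arrays of a number share something. All 3 numbers were over 0.1 for irradiated and control embryos of the earlier window (0.176, 0.130 and 0.421) but not for the other pairs of groups. For irradiated and control embryos of the later window the values were close to these, at 0.0998, 0.116 and 0.435. With the replicate number as a block the X-ray difference of the earlier window was again -0.46 and not called, that of the later window 1.61 and not called, and the control stage difference -1.46 and called, with 3180 probe sets called in place of 2719. The SE of each of these Rtnl1 differences was 0.35 with the block, against 0.46 in the main fit, so the intervals depend on this choice. Over all settings the number called ran from 0 to 1 for X-rays in the later window, 0 to 9 in the earlier one (2 with all arrays, 9 without the arrays numbered 3), 0 to 12 for the difference between windows (2 with all arrays, 12 without those numbered 3), 1585 to 3180 for stages in controls and 1444 to 2881 in irradiated embryos (2390 with all arrays). Of the 3 genes most like Rtnl1, 0 stayed among the 3 most alike without the arrays numbered 1, and 0 without those numbered 3. The stage calls of betaTub60D, en and Jheh1 held in every setting run. Strn-Mlck, kept only through later arrays, lost its call in 2 settings in controls (without the arrays numbered 2 or 3) and in 4 in irradiated embryos. It was not kept by the stricter filter (above 46.3 on at least 6 arrays), so that setting gave no value for it.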

Other observations

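The shape of the Rtnl1 readings, chosen here after its values were seen, was counted over the table. Later controls 1 and 2 both read below the other 10 arrays for 498 of 10139 tested probe sets (4.91%). A reading at or under the filter value on these 2 arrays and above it on the other 10 was seen for 47 (0.464%). Of the 107 tested genes with names, only Rtnl1 had this shape. The shape was taken from its own readings, so this shows nothing particular to Rtnl1. Compared with the arrays of their own window, these 2 had the lowest median Spearman correlations of the 12, at 0.825 and 0.836, while no other array lay below 0.854.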
